A study of Mus musculus with 34 samples.

Results

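The genes described here are 9 adhesion molecules by which circulating leukocytes are caught at, held on and passed through the vessel wall. They were chosen by gene symbol: the selectins Sele (E-selectin) and Selp (P-selectin), the selectin ligand Selplg (PSGL-1), the immunoglobulin-family receptors Icam1, Icam2 and Vcam1, the endothelial junction molecule Pecam1, and Itgam (CD11b) and Itgb2 (CD18), the chains that together form the leukocyte integrin Mac-1. All 9 were listed in both deposited tables, of 14552 genes in one and 17406 in the other.

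In textbook outline, selectins on activated endothelium bind fucosylated, sialylated ligands such as PSGL-1 and let leukocytes roll along the vessel. Chemokine signals then switch leukocyte integrins to a binding form, and the integrins grip ICAM-1, ICAM-2 or VCAM-1 until the cell stops. The cell then crosses the endothelial junctions, where PECAM-1 takes part. E-selectin, ICAM-1 and VCAM-1 are made on demand after cytokine signals, P-selectin is both stored in endothelial granules and platelets and newly transcribed, and ICAM-2 and PECAM-1 are carried by resting endothelium. After myocardial infarction (MI), neutrophils enter the heart early and monocytes follow.

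RNA was measured in heart left ventricle (LV) of CFW mice, an outbred stock, with MI made by tying off the left anterior descending (LAD) coronary artery for good. The uninjected set held 3 control hearts (libraries D, H and I), 3 hearts at 4 h post-MI (C, D and E) and 4 hearts at 24 h post-MI (C, D, G and H), from the ischemic area or its equivalent, without any injection. The controls are called sham in the titles and in the study's methods, whereas another of their labels reads no operation. The injected set held 2 sham-operated hearts labelled 4 h and not injected, and infarcted hearts that received modified mRNA (modRNA) in the border zone right after ligation: AC modRNA (4 libraries at 4 h, 3 at 24 h, 4 at 48 h) or Luc modRNA (4, 3 and 4 libraries). Luc modRNA encodes firefly luciferase, and the labels do not spell out AC. In a comparison of Luc with sham, infarction and injection therefore changed together. Ages and sexes were not given in the sources used here, and nothing says whether the libraries of the injected set came from separate mice, so that p-values measure the spread between these samples. Titles of the injected set follow a different pattern at 24 h and at 48 h than at 4 h and in sham, so time and any difference in handling between these series cannot be told apart.

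Values are CPM, read counts brought to a common library total and scaled by the TMM method, and the 2 sets were scaled separately, so each was tested on its own. Tests were made with limma on log2(CPM + 1) over 12487 and 12555 genes averaging 1 CPM or more, and a gene was called at a Benjamini-Hochberg q value under 0.05. In the uninjected set, 12553519 to 18952669 reads per library were estimated on the listed genes, and 1 read was worth 0.0313 to 0.0479 CPM. The depth of the injected set is unknown. The 6 cardiomyocyte markers summed to between 15735 and 62117 CPM over all libraries, and all 12 endothelial markers (Cdh5, Kdr, Tek and others, without any of the 9 genes) were listed in both sets. Below, Sele, Selp, Icam1, Icam2, Vcam1 and Pecam1 are called endothelial genes, and Selplg, Itgam and Itgb2 leukocyte genes. These names are for grouping only, since values from bulk tissue do not show which cells held the RNA.

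By position in mm10, as deposited, Sele (chr1:164048234-164057678) and Selp (chr1:164115264-164150027) stand 57585 bases apart on the plus strand of chromosome 1. Icam2 (chr11:106377656-106382782) and Pecam1 (chr11:106654213-106715282) lie 271430 bases apart on the minus strand of chromosome 11. Icam1 is at chr9:21015940-21028815 and Itgam at chr7:128062640-128118492, both on the plus strand, as is Itgb2 at chr10:77530348-77565675. Vcam1 is at chr3:116110020-116129689 and Selplg at chr5:113817798-113830502, both on the minus strand. In the GENCODE annotation of the same assembly, 438 exon bases of Selp lie opposite the antisense gene Gm16548, which reached at most 1.17 CPM in the uninjected and 2.88 CPM in the injected set. Itgam shares 3450 exon bases with the same-strand gene model Gm49368. Icam1 and Vcam1 also share bases with an antisense gene model. The sources used here do not state whether counting used the strand, which in any case would not part Itgam from Gm49368. These 4 values may therefore include reads of the other gene.

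The RefSeq promoter reference used here, on GRCm38.p6, held a window for 4 of the 9 genes: Sele, Selp, Icam1 and Itgam. Each window ran from 250 bases before to 50 bases after the start. That the other genes were missing is a limit of this reference. Short stretches are shown because Sele and Icam1, with Selp, are the genes called at 4 h post-MI in uninjected hearts. Both strands were searched for the AP-1 site (TGACTCA or TGAGTCA), the TATA box (TATAAA), the CRE (TGACGTCA) and the NF-kB consensus, none of which contains another. Capitals mark the matched letters, 5′ to 3′ on the plus strand.
Sele, AP-1, chr1:164048153-164048175: atgtcctaTGACTCAcaggaagc
Sele, TATA box, chr1:164048177-164048198: agctccccTATAAAgaggctcc
Icam1, TATA box, chr9:21015945-21015966: ccagagacTATAAAagcgccgc
In Sele the AP-1 letters begin 73 bases and the TATA letters 49 bases before the annotated start, whereas in Icam1 the TATA letters begin 13 bases after it. Among 32851 promoter windows of 300 bases, 5.2% held the AP-1 letters, 13.6% TATAAA, 1.79% the CRE and 4.51% the NF-kB consensus. No further match to these letters was found in the 4 windows, which says nothing of the factors themselves.

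At 4 h post-MI in uninjected hearts, Sele, Selp and Icam1 rose and the other 6 genes did not pass the test. These 3 of 9 stand beside 2.37% of all genes called in either direction, 1.55% called higher and 0.817% lower. The same 3 did not overlap between the groups, nor did 28.8% of all genes. The median log2 fold change of the 9 was 0.27, against -0.03 over all genes tested. Sele, which captures rolling leukocytes on activated endothelium, read 0.217, 0.403 and 0.845 CPM in the sham libraries and 16.8, 11.7 and 10.5 CPM at 4 h. The groups lay far apart, and the sham values rested on 6, 10 and 26 estimated reads. The ratio of means was 26.6 ± 18.8-fold (propagated SD), and log2(CPM + 1) rose by 3.23 ± 0.22 (SE, limma q = 1.4e-05), a scale that understates a gene so low in sham.

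Selp read 0.325, 0.282 and 0.293 CPM in sham and 9.29, 16 and 10.5 CPM at 4 h. The sham values stood close together, at 7 to 9 estimated reads, and below every library at 4 h. The ratio of means was 39.7 ± 12.3-fold, with a log2 change of 3.28 ± 0.31 (SE, limma q = 0.00014). Icam1, a counter-receptor of Mac-1 and of LFA-1, was already present in sham at 8.86, 9.56 and 10.9 CPM and reached 27.5, 35.6 and 26.9 CPM at 4 h, with no overlap. It rose 3.07 ± 0.594-fold (log2 change 1.52 ± 0.15, SE, limma q = 0.00024).

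The leukocyte genes were at sham level at 4 h. Itgam read 4.81, 4.07 and 3.09 CPM in sham and 3.38, 6.08 and 4.37 CPM at 4 h (log2 change 0.16, 95% interval -0.57 to 0.88). Itgb2 read 4.09, 4.03 and 2.96 CPM in sham and 4.14, 4.74 and 4.03 CPM at 4 h (0.18, -0.36 to 0.73). Selplg, carried by leukocytes, read 2.72, 2.79 and 1.92 CPM in sham and 3.02, 2.44 and 2.75 CPM at 4 h (0.11, -0.70 to 0.92). Each of the 3 overlapped sham. Over the same libraries the 9 neutrophil markers summed to 1.5 to 1.95 CPM in sham and 7.97 to 32.6 CPM at 4 h, a separation without overlap although no single marker of the 7 tested was called.

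Among the remaining endothelial genes, Vcam1, the receptor of the integrin VLA-4, read 8.57, 14.2 and 14.9 CPM in sham and 14.1, 14.9 and 16.8 CPM at 4 h. These values overlapped, and the log2 change was 0.30 with a 95% interval of -0.09 to 0.68 (limma q = 0.44). Icam2 differed by 0.02 (-0.29 to 0.32) and Pecam1 by 0.27 (-0.06 to 0.60), neither called. The summed endothelial markers ranged from 922 to 1047 CPM in sham and from 964 to 1165 CPM at 4 h. As a share of that sum, Sele went from 0.0520% ± 0.0362 (SD, n = 3) to 1.21% ± 0.227 (n = 3), and Selp from 0.0311% ± 0.000585 to 1.15% ± 0.454.

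**Figure D1:**
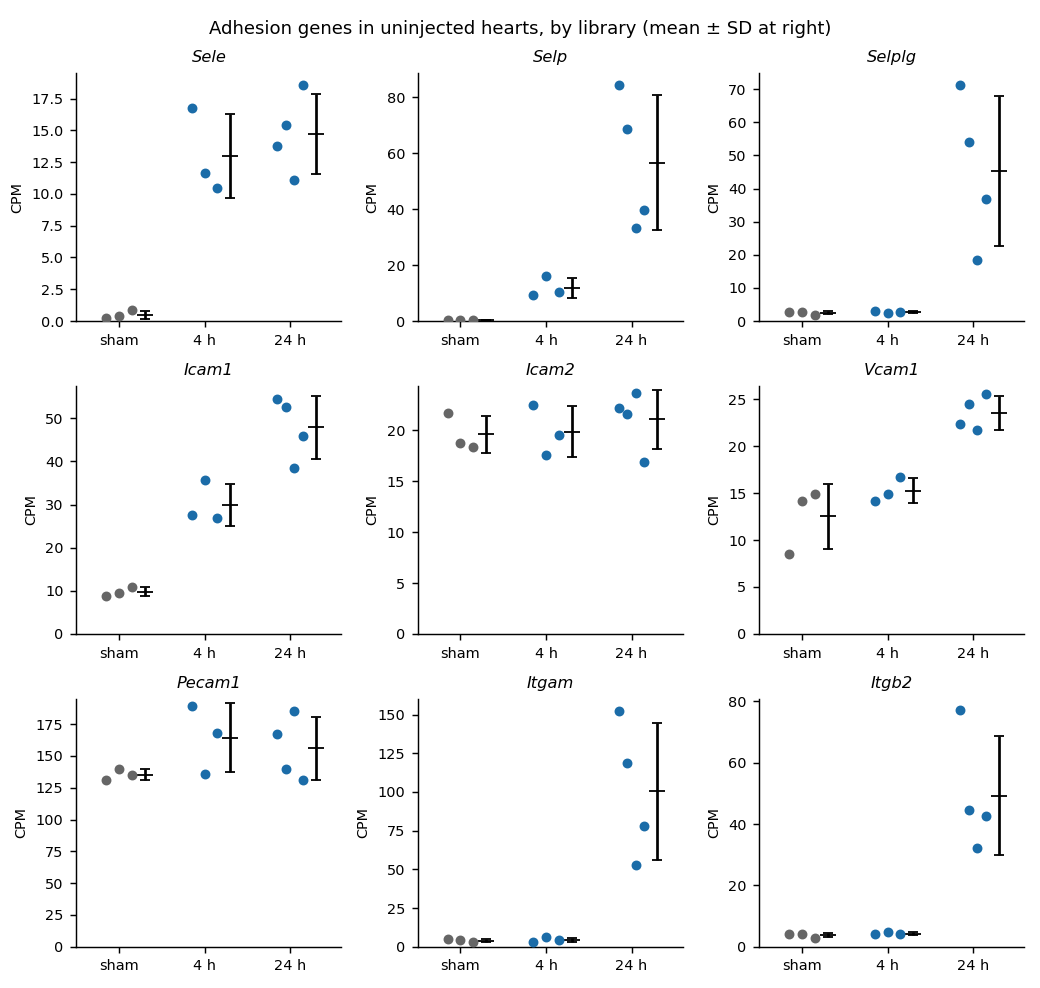
CPM of each gene in every library of the uninjected set (sham n = 3, 4 h n = 3, 24 h n = 4), on linear axes from 0, with the mean ± SD at the right of each group. Sele, Selp and Icam1 are above sham at 4 h, Itgam, Itgb2 and Selplg only at 24 h, and Icam2 and Pecam1 overlap sham at both times.

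At 24 h post-MI, 7 of the 9 genes were higher than in sham, in a comparison that called 66.0% of all genes in either direction, 35.6% higher and 30.3% lower. The median log2 fold change of the 9 was 3.36, against 0.04 over all genes. The 2 exceptions were Icam2 and Pecam1, the genes of resting endothelium. In the same libraries the cardiomyocyte markers summed to 15735 to 28124 CPM, against 40196 to 43474 CPM in sham, and the 3 smooth muscle and pericyte markers to 141 to 260 CPM, against 464 to 552 CPM, and their part in the result was not tested. In each of the 7 every library at 24 h lay above every sham library, a separation also seen in 64.0% of genes tested, upward in 35.3%.

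Itgam reached 152.6, 118.7, 52.6 and 77.7 CPM in libraries C, D, G and H. The ratio to sham was 25.2 ± 12.3-fold (log2 change 4.25 ± 0.31, SE, limma q = 9.2e-07). Its partner chain Itgb2 read 77.1, 44.7, 32.3 and 42.7 CPM, 13.3 ± 5.73-fold over sham (3.36 ± 0.23, q = 7e-07). Selplg read 71.3, 54.1, 18.5 and 36.9 CPM, 18.3 ± 9.82-fold over sham (3.59 ± 0.34, q = 5.1e-06). In all 3 genes library C was the highest and library G the lowest, and the lowest value was still several times the highest sham value. The neutrophil markers summed to 305 to 1901 CPM in these libraries and the 10 monocyte and macrophage markers to 423 to 803 CPM, against 142 to 227 CPM for the latter in sham. In bulk tissue, more cells of a type and more RNA per cell cannot be told apart.

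Relative to the summed neutrophil, monocyte and macrophage markers, Itgam was 2.33% ± 0.442 in sham (SD, n = 3), 2.13% ± 0.416 at 4 h (n = 3) and 6.02% ± 0.850 at 24 h (n = 4). Selplg was 1.47% ± 0.416, 1.30% ± 0.268 and 2.6% ± 0.166 of that sum. Itgb2 overlapped between the groups, at 1.79% to 2.82% in sham and 1.99% to 4.44% at 24 h. These shares are descriptions, since a share depends on which markers make up the sum.

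Of the endothelial genes, Selp read 84.4, 68.8, 33.4 and 39.7 CPM at 24 h, 189 ± 81.6-fold over sham (log2 change 5.37 ± 0.29, SE, limma q = 1.6e-07). Sele read 13.7, 15.4, 11.1 and 18.6 CPM, 30.1 ± 20.9-fold over sham (3.40 ± 0.21, q = 3e-07). In these uninjected hearts the selectins thus parted after 4 h. From 4 h to 24 h Selp rose by a further 2.09 ± 0.29 on the log2 scale (q = 8.4e-05), whereas Sele differed by 0.17 (95% interval -0.28 to 0.62, q = 0.48). The ratio of Selp to Sele within a library was 0.554 to 1.37 at 4 h and 2.14 to 6.14 at 24 h, which did not overlap. In Luc hearts of the injected set that ratio did overlap, at 1.68 to 2.36 at 4 h and 1.12 to 2.31 at 24 h. P-selectin is also a platelet protein, and the 5 platelet markers summed to 4.15 to 8.93 CPM in sham, 7.71 to 8.89 CPM at 4 h and 18.5 to 40.7 CPM at 24 h. Their part in the Selp value was not tested.

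Icam1 read 54.6, 52.6, 38.6 and 45.8 CPM at 24 h, 4.90 ± 0.905-fold over sham (log2 change 2.17 ± 0.14, SE, limma q = 4.8e-07), and was higher than at 4 h by 0.66 ± 0.14 (q = 0.0018). Vcam1 read 22.4, 24.5, 21.7 and 25.6 CPM, 1.87 ± 0.538-fold over sham (0.89 ± 0.16, q = 0.00055), and was above 4 h by 0.59 ± 0.16 (q = 0.0076). In both genes the 24 h libraries were above all sham and all 4 h libraries. In that comparison of 24 h with 4 h, 6 of the 9 genes were called, all higher, beside 63.9% of all genes called, 37.2% higher and 26.7% lower: Itgam (4.09 ± 0.31, q = 1.8e-06), Selplg (3.47 ± 0.34, q = 9e-06) and Itgb2 (3.17 ± 0.23, q = 1.5e-06) joined Selp, Icam1 and Vcam1. The groups did not overlap in these 6 genes, nor in 62.2% of all genes (37.0% of all, upward).

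Icam2 and Pecam1 were not called in any of the 3 comparisons. Icam2 averaged 19.6 ± 1.82 CPM in sham, 19.9 ± 2.50 CPM at 4 h and 21.1 ± 2.92 CPM at 24 h (SD, n = 3, 3 and 4), with a log2 difference of 24 h from sham of 0.09 (95% interval -0.19 to 0.38). Pecam1 averaged 135.1 ± 4.33, 164.4 ± 27.3 and 155.9 ± 24.9 CPM, with a difference of 0.19 (-0.12 to 0.50). The endothelial markers summed to 791 to 1070 CPM at 24 h, overlapping sham, with 3 of 12 called higher and 4 lower. As a share of them, Icam1 was 1.02% ± 0.168 in sham, 2.86% ± 0.727 at 4 h and 5.2% ± 1.15 at 24 h, and Vcam1 1.32% ± 0.440, 1.45% ± 0.202 and 2.56% ± 0.504.

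Per kilobase of the longest coding transcript, the order of mean levels changed over these times. In sham, Pecam1 led at 39.3 CPM per kb, followed by Icam2 (15.3), Icam1 (3.85), Vcam1 (3.62), Selplg (1.33), Itgb2 (1.24), Itgam (0.852), Sele (0.168) and Selp (0.0873). Icam1 and Vcam1 overlapped between libraries, as did Selplg with Itgb2, Itgb2 with Itgam, and Sele with Selp. At 24 h, Pecam1 was still first at 45.3 CPM per kb, with Selplg (24.4), Itgam (21.45), Icam1 (18.9) and Itgb2 (16.6) next, Selp and Icam2 level at 16.45, and Vcam1 (6.79) and Sele (5.05) last. From Selplg to Icam2 the neighbours in that order did not differ beyond their spread between libraries.

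**Figure D2:**
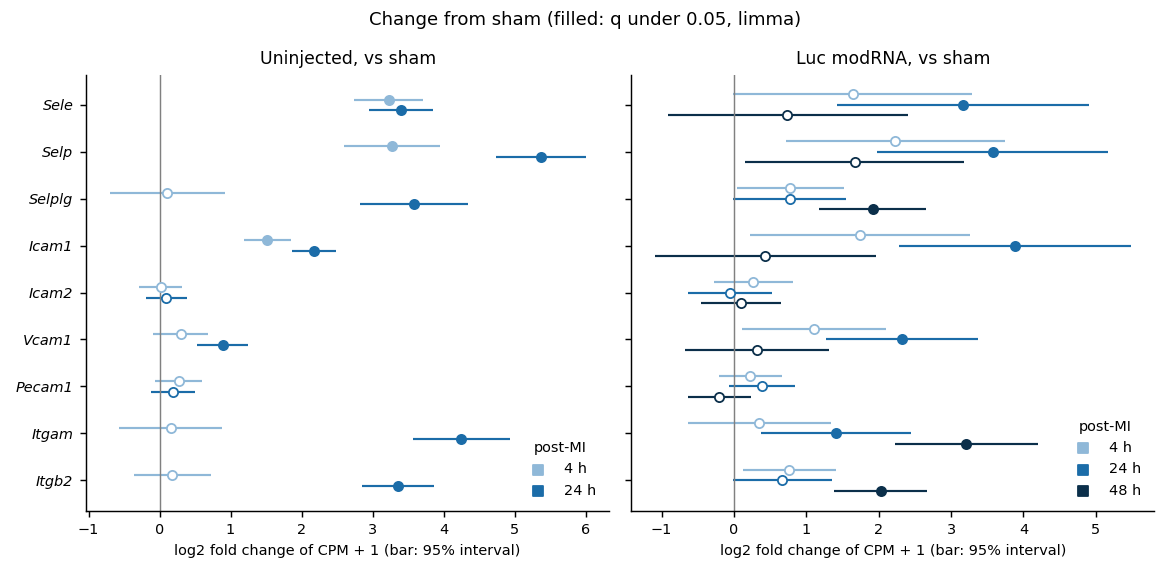
Limma log2 fold changes from sham with 95% intervals (horizontal axis) for each gene in uninjected hearts at 4 and 24 h (left) and in Luc modRNA hearts at 4, 24 and 48 h (right), with filled points for a q value under 0.05. On the left 3 genes are filled at 4 h and 7 at 24 h, and on the right none at 4 h, 5 at 24 h and 3 at 48 h.

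In the injected set, the same genes were followed to 48 h. At 24 h, libraries a of AC and A of Luc stood apart from the other 4 in the inducible endothelial genes. Icam1 read 984.9 CPM in AC a and 654.5 CPM in Luc A, against 44.5 and 124.8 CPM in AC c and d and 140.8 and 131.9 CPM in Luc C and D. By rank, Icam1 was number 85 of all genes in AC a and number 157 in Luc A, and between 867 and 2723 in the other 4. Log2 differences of the 9 genes that involve the 24 h groups are therefore also given without these 2 libraries, an alternative added after the data were seen. The neutrophil markers summed to 64.6 CPM in AC a, the lowest of the 6 libraries, to 119 CPM in Luc A and to 326 CPM in AC c, the highest.

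At 4 h in Luc hearts every library was above both sham libraries in all 9 genes, yet none was called by limma over the injected set. Of all genes tested, 32.5% did not overlap, 17.2% upward, and 1.55% of genes were called. The neutrophil markers summed to 76.8 to 164 CPM in these Luc libraries against 2.95 to 21.6 CPM in sham, and the erythrocyte markers to 1723 to 2581 CPM against 196 to 647 CPM, and their part in the separation was not tested. Icam1 read 14.3 and 15.2 CPM in sham and 67.8, 43.7, 55.4 and 42.6 CPM in Luc (3.56 ± 0.816-fold, log2 change 1.74 ± 0.73, SE, limma q = 0.29). Selp read 1.70 and 2.46 CPM in sham and 16.7, 11, 16.2 and 10.7 CPM in Luc (6.57 ± 2.29-fold, 2.23 ± 0.73, q = 0.15). Sele read 1.11 and 1.84 CPM in sham and 7.23, 6.04, 9.65 and 4.53 CPM in Luc (4.65 ± 2.20-fold, 1.64 ± 0.80, q = 0.37). When only the sham and the Luc 4 h libraries entered the model, without the wide 24 h groups, 5 genes were called, beside 4.76% of all genes in that model and 3.88% higher: Selp (q = 0.00017), Icam1 (q = 0.00043), Sele (q = 0.0033), Vcam1 (q = 0.0051) and Selplg (q = 0.036).

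At 24 h in Luc hearts, Icam1, Selp, Sele, Vcam1 and Itgam were higher than in sham, 5 of 9 genes beside 34.1% of all genes called, 25.3% higher and 8.79% lower. Icam1 rose by 3.88 ± 0.77 on the log2 scale (SE, limma q = 0.00065), and by 3.13 (q = 2.5e-05) without the 2 libraries A. Selp read 95.2, 20.5 and 22.4 CPM in Luc A, C and D, a rise of 3.58 ± 0.77 (q = 0.0013), or 2.88 without them (q = 0.0017). Sele read 85.2, 10.5 and 9.68 CPM, a rise of 3.16 ± 0.84 (q = 0.0061), or 2.18 without them (q = 0.0026). Vcam1 read 10.8 and 13.7 CPM in sham and 122.1, 54.0 and 40.4 CPM in Luc, a rise of 2.32 ± 0.51 (q = 0.0014), or 1.86 without them (q = 0.00037).

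These 4 endothelial genes thus stayed called with and without the libraries that stood apart. Itgam read 3.32 and 4.16 CPM in sham and 29.0, 8.87 and 5.72 CPM in Luc A, C and D, a rise of 1.41 ± 0.50 (limma q = 0.034) that was 0.79 without libraries A (q = 0.19). The Itgam call was also lost without sham 1 (q = 0.19) or sham 2 (q = 0.075), and the Sele call without sham 1 (q = 0.075). Itgb2 and Selplg were not called, with differences of 0.67 (95% interval -0.01 to 1.35) and 0.77 (-0.01 to 1.55), or 0.42 (q = 0.33) and 0.61 (q = 0.19) without libraries A. The neutrophil markers summed to 65.2 to 119 CPM here, above the 2.95 to 21.6 CPM of sham, with 8 of 8 tested called higher. The monocyte and macrophage markers summed to 170 to 234 CPM, overlapping the 180 to 232 CPM of sham, with 3 of 10 called higher and 1 lower. Under median-ratio rescaling the median of all genes fell by 0.17, and the 3172 genes higher and 1103 lower became 2304 and 2014, with Itgam no longer called (q = 0.06).

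From 4 h to 24 h in Luc hearts, Icam1 rose by 2.14 ± 0.65 (SE, limma q = 0.015) and Vcam1 by 1.21 ± 0.42 (q = 0.033), 2 of 9 genes beside 32.3% of all genes called, 24.5% higher and 7.80% lower. Without both libraries A the Icam1 rise was 1.39 (q = 0.0099) and the Vcam1 rise 0.75 (q = 0.06). Leaving out Luc A alone lost both (q = 0.14 and 0.23), and the Vcam1 call was also lost without Luc 4 h library 2 (q = 0.071) or 4 (q = 0.075). Sele (1.52, q = 0.10) and Selp (1.34, q = 0.12) did not pass the test, nor did they without libraries A (0.53, q = 0.38, and 0.64, q = 0.40). Rescaling by median ratios lowered the median of all genes by 0.15, turned 3079 genes higher and 979 lower into 1965 and 1803, and left Vcam1 uncalled (q = 0.073).

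**Figure D3:**
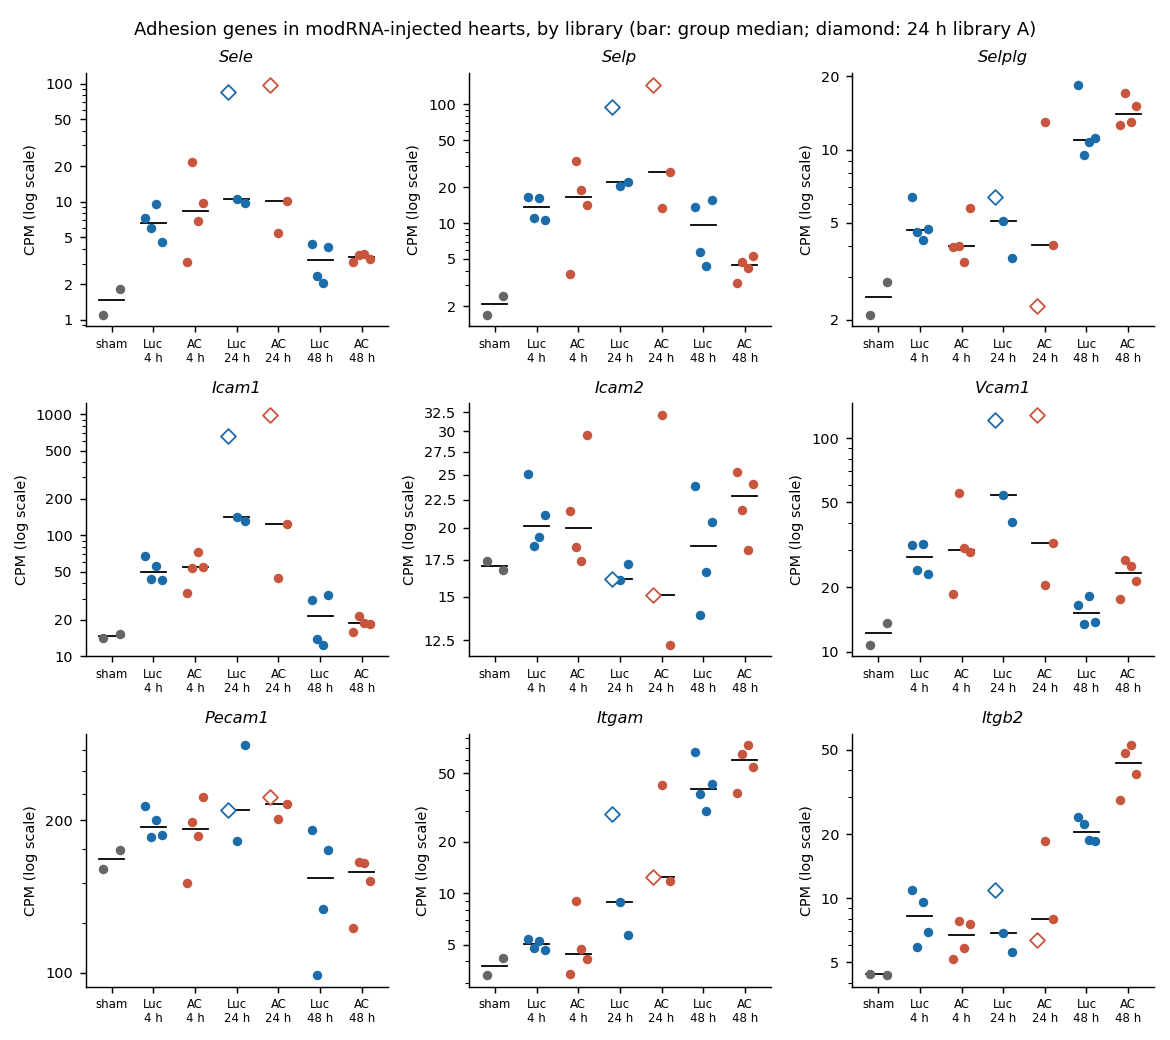
CPM of each gene in every library of the injected set on a log axis, by group (sham n = 2, 4 h and 48 h n = 4 per modRNA, 24 h n = 3 per modRNA), with the group median as a bar and the 24 h libraries A as open diamonds. By group median, Sele, Selp, Icam1 and Vcam1 are highest at 24 h, and Selplg, Itgam and Itgb2 at 48 h.

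From 24 h to 48 h in Luc hearts, 5 of the 6 endothelial genes fell and the 3 leukocyte genes rose. The exception was Icam2 (0.15, 95% interval -0.33 to 0.64, q = 0.63, and 0.14, q = 0.72, without libraries A). These 8 calls stand beside 41.9% of all genes called, 32.6% lower and 9.32% higher. Icam1 went to 29.4, 14.0, 32.3 and 12.4 CPM in Luc 48 h libraries 1, 2, 3 and 4, below every 24 h library, and fell by 3.44 ± 0.65 (SE, limma q = 0.00035). Vcam1 went to 16.6, 13.4, 13.8 and 18.1 CPM and fell by 2.00 ± 0.42 (q = 0.00093). Sele went to 4.38, 2.34, 4.15 and 2.05 CPM and fell by 2.42 ± 0.70 (q = 0.0089). Without both libraries A these falls were -2.69, -1.54 and -1.43 and all were called (q = 3.3e-05, 0.00046 and 0.012), though Sele was not without Luc A alone (q = 0.099).

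Selp and Pecam1 fell by less secure amounts. Selp went to 13.7, 5.78, 15.8 and 4.34 CPM and fell by 1.91 ± 0.65 (SE, limma q = 0.021), a call lost without Luc A (q = 0.16), without both libraries A (q = 0.076), and without Luc 48 h library 2 (q = 0.058) or 4 (q = 0.064). Pecam1 read 209.4, 182.1 and 281.0 CPM at 24 h and 191.4, 98.9, 174.2 and 133.5 CPM at 48 h, which overlap, and fell by 0.60 ± 0.19 (q = 0.013), a difference of -0.64 without libraries A (q = 0.027). The Pecam1 call was lost without Luc 24 h library D (q = 0.11), without Luc 48 h library 2 (q = 0.06) and under median-ratio rescaling (q = 0.13), as was that of Selp (q = 0.056). That rescaling raised the median of all genes by 0.22 and turned 1170 genes higher and 4088 lower into 2029 and 2053. The endothelial markers summed to 1174 to 1786 CPM at 24 h and to 704 to 1446 CPM at 48 h.

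The leukocyte genes were at their highest in Luc hearts at 48 h. Itgam read 67.1, 37.8, 43.2 and 30.2 CPM in libraries 1, 2, 3 and 4, a rise from 24 h of 1.80 ± 0.42 (SE, limma q = 0.002) and from sham of 3.21 ± 0.48 (q = 4.4e-05), 11.9 ± 4.65-fold over sham. Itgb2 read 24.1, 22.4, 18.7 and 18.8 CPM, against 4.4 and 4.35 CPM in sham, rising by 1.36 ± 0.27 from 24 h (q = 0.00063) and 2.03 ± 0.31 from sham (q = 6.2e-05). Selplg read 18.4, 9.49, 11.1 and 10.7 CPM, against 2.10 and 2.86 CPM in sham, rising by 1.14 ± 0.32 from 24 h (q = 0.0064) and 1.92 ± 0.36 from sham (q = 0.00043). Without libraries A the rises from 24 h were 2.42 for Itgam (q = 0.00012), 1.60 for Itgb2 (q = 0.00024) and 1.31 for Selplg (q = 0.0023). These 3 were the genes called against sham at 48 h, beside 30.1% of all genes called, 13.7% higher and 16.4% lower. The 6 endothelial genes were not, with Selp (1.67, q = 0.088, but 0.039 with the compared groups alone) nearest and Icam1 at 0.43 (95% interval -1.09 to 1.96). The neutrophil markers summed to 118 to 443 CPM and the monocyte and macrophage markers to 270 to 381 CPM in these libraries.

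AC and Luc hearts were compared at each time. At 4 h and at 24 h none of the 9 genes was called by limma, and none had an unadjusted p under 0.05, where 0.00796% of all genes were called at either time. The groups overlapped in each of the 9, as in most genes: 2.02% of all genes did not overlap at 4 h and 9.33% at 24 h. At 4 h Icam1 read 33.6, 54.1, 73.1 and 54.2 CPM in AC, a difference from Luc of 0.01 with a 95% interval of -1.23 to 1.25. Sele in AC at 4 h ranged from 3.06 to 21.6 CPM and Selp from 3.71 to 33.2 CPM, with library 1 lowest and library 2 highest in both. The 5 erythrocyte markers summed to 10695 CPM in AC library 1, the highest of the set, against 2436 to 6308 CPM in the other AC libraries and 1723 to 2581 CPM in the Luc libraries at 4 h, and their part in these values was not tested.

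At 24 h the interval for Icam1 between AC and Luc was -1.81 to 1.06, for Selp -1.33 to 1.53 and for Sele -1.75 to 1.36, so each interval reaches past 1 log2 unit in both directions. In AC library c, Itgam and Selplg were highest and Icam1, Sele and Vcam1 lowest of the 6 libraries. Itgam read 12.5, 43.0 and 11.8 CPM in AC a, c and d, and Selplg 2.27, 12.9 and 4.04 CPM, with Sele at 5.43 CPM and Vcam1 at 20.4 CPM in c. Without libraries A the differences of AC from Luc were -0.86 for Icam1 (q = 0.47), -0.39 for Sele (q = 0.82), -0.16 for Selp (q = 0.95) and 1.54 for Itgam (q = 0.17).

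At 48 h, Itgb2 was higher in AC than in Luc hearts, 1 of 9 genes beside 15.3% of all genes called, 12.1% higher and 3.27% lower. It read 29.2, 48.2, 52.6 and 38.3 CPM in AC libraries 1, 2, 4 and 5, each above the 4 Luc libraries. Such a separation was seen in 19.1% of genes tested, upward in 15.5%. The ratio of means was 2.00 ± 0.562-fold and the log2 difference 0.94 ± 0.25 (SE, limma q = 0.016). The call was lost without AC library 2 (0.87, q = 0.055), without AC library 4 (0.83, q = 0.061) and without Luc library 3 (0.89, q = 0.059). The monocyte and macrophage markers summed to 496 to 683 CPM in AC and 270 to 381 CPM in Luc, with 6 of 10 called higher, and the neutrophil markers to 110 to 149 CPM in AC and 118 to 443 CPM in Luc, with 1 of 8 called lower. Relative to both marker sums together, Itgb2 was 4.58% to 6.76% in AC and 2.93% to 4.66% in Luc, which overlap.

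Its partner Itgam did not differ beyond the spread at 48 h, at 38.4, 64.9, 73.2 and 54.3 CPM in AC, with a log2 difference from Luc of 0.39 (95% interval -0.42 to 1.19). Selplg differed by 0.23 (-0.37 to 0.84). Selp was at 3.15, 4.70, 4.22 and 5.30 CPM in AC against 4.34 to 15.8 CPM in Luc, a log2 difference of -0.88 with an interval of -2.12 to 0.36 (limma q = 0.34). Vcam1, at 17.6 to 26.9 CPM in AC and 13.4 to 18.1 CPM in Luc, differed by 0.52 (-0.29 to 1.34). These intervals rest on a spread estimated over all groups of the injected set, the wide 24 h groups included. Median-ratio rescaling lowered the median of all genes by 0.12 in this comparison and turned 1516 genes higher and 410 lower into 845 and 774. The difference between AC and Luc was not shown to change with time in any of the 9 genes, with Itgb2 nearest (48 h minus 4 h, 1.22 ± 0.36, unadjusted p = 0.0025, limma q = 0.062). Of all genes, 3.35% were called in that comparison, 2.56% for 48 h minus 24 h and 0.00796% for 24 h minus 4 h, and only Itgb2 of the 9 had an unadjusted p under 0.05. With median-ratio rescaling, which lowered the medians of all genes by 0.13 and 0.16, the 362 genes higher and 59 lower for 48 h minus 4 h became 275 and 174, and the 280 and 42 for 48 h minus 24 h became 167 and 125.

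**Figure D4:**
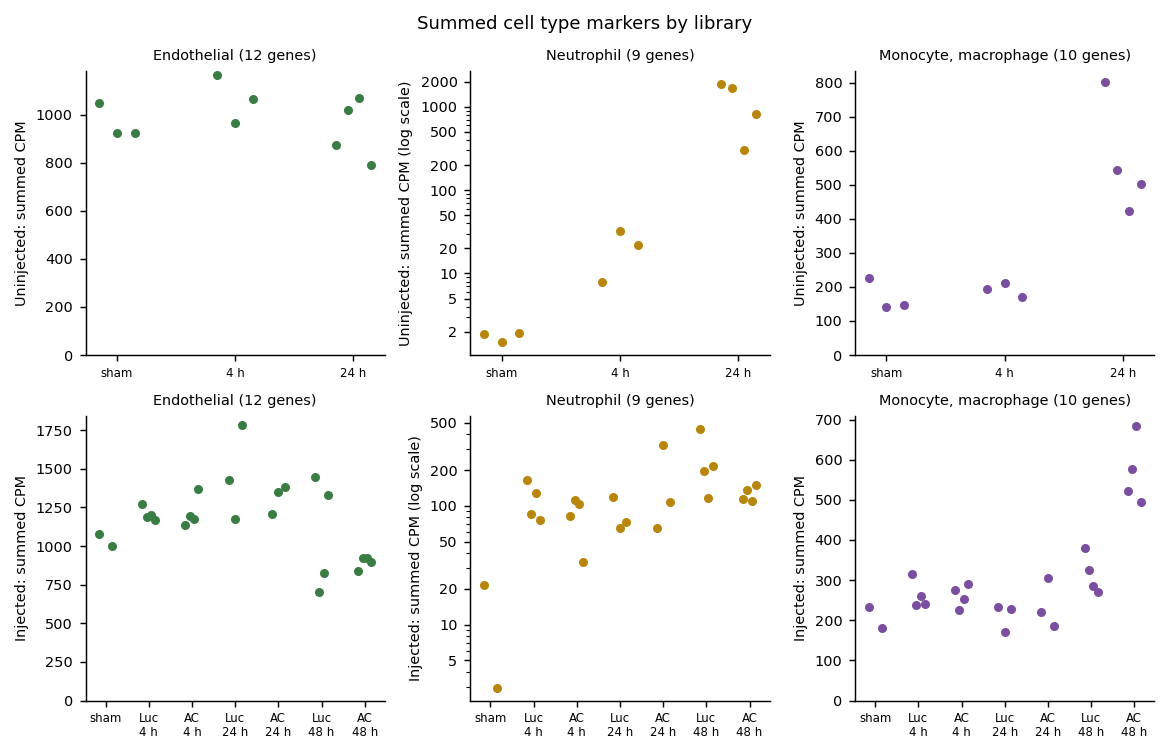
Summed CPM of the endothelial, neutrophil and monocyte-macrophage markers in each library of the uninjected (top) and injected (bottom) sets, with a log axis for the neutrophil panels and linear axes from 0 for the others. Neutrophil markers reach 305 to 1901 CPM at 24 h in uninjected hearts and 64.6 to 326 CPM at 24 h in injected hearts.

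Across the 24 libraries of the injected set, the genes were matched to the 3 genes most like each in pattern, by Pearson r of log2(CPM + 1) among 7719 genes averaging 10 CPM or more. These r are descriptions over libraries that share groups, and they are also given without libraries A (22 libraries). Sele was most like Vcam1 (0.95, and 0.89 without), Selp (0.95 and 0.91) and Birc3 (0.94 and 0.90), a gene of the inhibitor-of-apoptosis family. Selp was most like Itpkc (0.96 and 0.96), Birc3 (0.96 and 0.92) and the neutrophil chemokine Cxcl2 (0.95 and 0.92). Icam1 was most like the granulocyte growth factor Csf3 (0.98 and 0.97), Plscr1 (0.98 and 0.96) and Zc3h12a (0.96 and 0.93), an RNase that limits inflammatory mRNAs. Vcam1 was most like Sele, Rnd1 (0.93 and 0.85) and Nfkb1 (0.92 and 0.90), a subunit of NF-kB.

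The leukocyte genes had other partners. Itgb2 was most like Lcp1 (0.98 and 0.99), Nckap1l (0.97 and 0.97), both actin regulators of blood cells, and the macrophage gene Cd68 (0.97 and 0.97), which is among the markers used above. Itgam was most like Adam8 (0.97 and 0.97), Tlr13 (0.97 and 0.97) and Timp1 (0.96 and 0.96), and Selplg like Arrb2 (0.95 and 0.95), Slc16a3 (0.93 and 0.95) and Alox5ap (0.93 and 0.94). Pecam1 was most like Stim1 (0.90 and 0.90), Prkch (0.86 and 0.85) and Pde2a (0.86 and 0.86), and Icam2 was most like Arsa (0.74 and 0.73), Crip1 (0.74 and 0.72) and Kcnj8 (0.73 and 0.71).

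Other genes of the adhesion cascade were taken as 3 lists, of which 50 genes could be tested in each set. At 4 h post-MI in uninjected hearts 1 of the 50 was called, a share close to the 2.37% of all genes. It was Cldn5, a claudin of endothelial tight junctions, at 18.5 ± 3.18 CPM against 10.4 ± 2.46 CPM in sham (SD, n = 3 each, log2 change 0.79 ± 0.16, limma q = 0.028). At 24 h post-MI 31 were higher, 9 lower and 10 not called, with a median of 0.62 against 0.04 over all genes, of which 35.6% were called higher and 30.3% lower. Of the integrins and their activators 13 of 15 were higher and 2 lower (median 1.56). Of the junction and transmigration genes 11 of 19 were higher and 3 lower (median 0.60), and of the selectin ligands and their enzymes 7 of 16 were higher and 4 lower (median 0.21).

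Among the largest rises at 24 h were genes of the list of selectin ligands and their enzymes. Cd24a, a P-selectin ligand on myeloid cells, went from 1.07 ± 0.279 CPM in sham (n = 3) to 47.7 ± 16.5 CPM (n = 4), a log2 change of 4.50 ± 0.23 (SE, limma q = 1.3e-07), and Cd44, an E-selectin ligand, from 5.28 ± 0.598 to 142.2 ± 36.4 CPM (4.48 ± 0.19, q = 4.4e-08). The 3 largest falls were Jam2, an endothelial junction molecule, from 135.1 ± 15 to 33.9 ± 9.07 CPM (-1.99 ± 0.18, q = 3.1e-06), St3gal3, a sialyltransferase, from 47.6 ± 3.09 to 19.3 ± 5.38 CPM (-1.30 ± 0.16, q = 3.9e-05), and Cd34, a sialomucin of endothelium, from 126.2 ± 5.68 to 71.7 ± 18.1 CPM (-0.84 ± 0.17, q = 0.00096).

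At 24 h in Luc hearts, 20 of the 50 were higher than in sham, 4 lower and 26 not called, with a median of 0.38 against 0.16 over all genes, of which 25.3% were called higher and 8.79% lower. Itga5, the fibronectin receptor chain, rose from 38.9 ± 13.0 CPM (n = 2) to 144.9 ± 51.3 CPM (n = 3), a log2 change of 1.86 ± 0.29 (SE, limma q = 4.8e-05). Cd44 rose by 1.68 ± 0.36 (q = 0.0011), from 5.74 ± 1.29 CPM (SD, n = 2) to 23.0 ± 14.6 CPM (n = 3). Tln1 (talin, which activates integrins) rose by 1.34 ± 0.28 (q = 0.00088), from 64.7 ± 30.8 to 159.7 ± 42.9 CPM. The list results at 24 h were not recomputed without libraries A. Jam2 fell by 1.29 ± 0.23 (q = 0.00024), Cd34 by 0.64 ± 0.19 (q = 0.012) and Gcnt1, an enzyme that builds the core of selectin ligands, by 1.56 ± 0.48 (q = 0.016). At 48 h in Luc hearts 12 of the 15 integrins and activators were higher than in sham and none lower, with a median of 0.93 (all genes 13.7% higher and 16.4% lower), against 6 of 15 higher at 24 h with a median of 0.32. Between AC and Luc, none of the 50 was called at 4 h or 24 h, and at 48 h 11 were higher and 1 lower in AC, with a median of 0.20 against 0.14 over all genes, of which 12.1% were called higher and 3.27% lower.

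**Figure D5:**
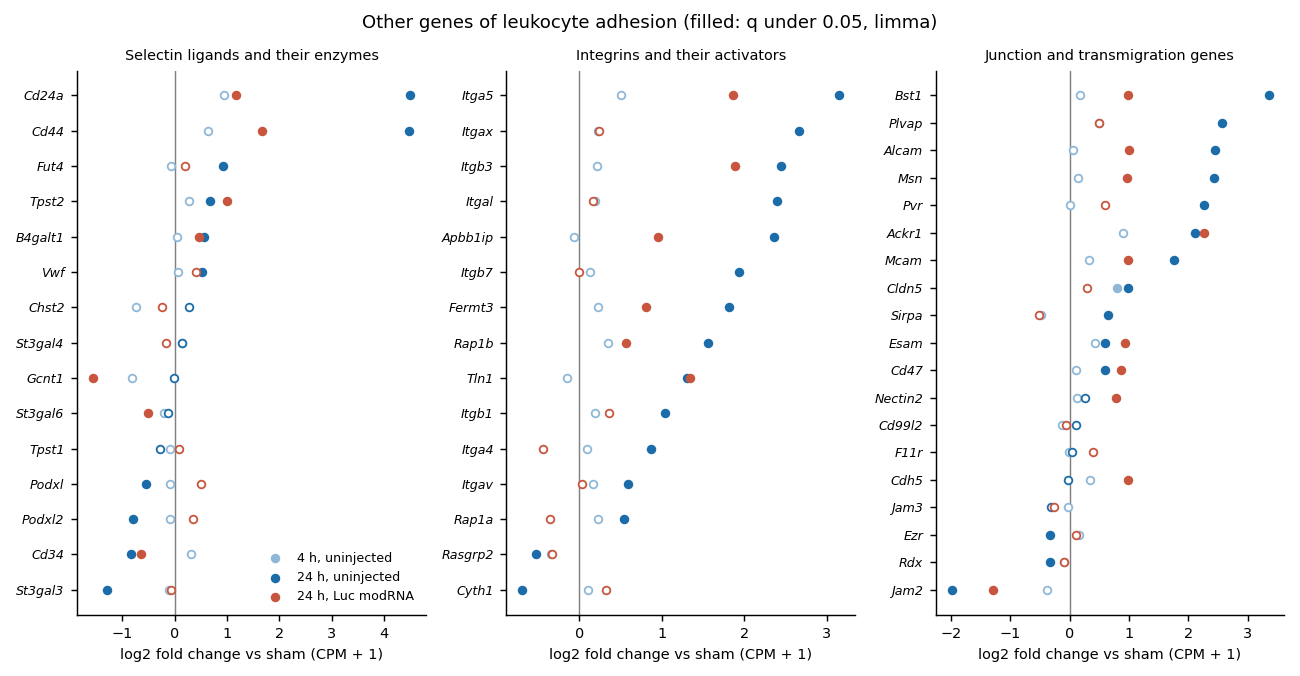
Limma log2 fold changes from sham (horizontal axis) of the other adhesion genes tested, by list (1 gene is not shown), for uninjected hearts at 4 h and 24 h and Luc modRNA hearts at 24 h, with filled points for a q value under 0.05. At 24 h in uninjected hearts most integrins and activators lie to the right of 0 (13 of 15 called higher), while at 4 h only Cldn5 is filled.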

How the data were processed

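LV libraries from poly(A) RNA were sequenced as single 50-bp reads, per the study's methods. The authors aligned them to mm10 with STAR, counted RefSeq genes with Partek's expectation-maximization method, by which reads matching several genes are shared out, and deposited TMM-scaled CPM. The second deposited table holds CPM to which 1 had been added (each library's minimum equals 1), so 1 was taken off. Under 20 times the lowest value, 86.0% to 88.0% of the first table's values were whole multiples of it (tolerance 0.1), so whole reads were not recovered and the planned count test was not run. Dividing a library's sum by its lowest value estimated its reads.

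Groups came from the labels. Limma 3.58.1 in R 4.3.3 (lmFit, eBayes with trend) was run on log2(CPM + 1) for genes averaging 1 CPM or more, all groups of a table in 1 model, and q values are Benjamini-Hochberg adjusted over all genes tested. Folds are ratios of mean CPM with propagated SDs. Transcript lengths came from GENCODE M21. The script was tested on simulated data. Alternatives were a pseudocount of 0.1, no filter or a mean of 10 CPM, median-ratio rescaling, the compared groups alone, no trend, array weights, a replicate block and each library left out. Leaving out both 24 h libraries A was added after the data were seen. Gene lists and members were chosen with earlier results of these data known. The named list genes were the 3 largest rises and falls among called genes averaging 10 CPM or more, and 1 item this rule named is not reported here. Python 3.11.15 did the rest.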

Additional observations from a re-analysis of the deposited data

Results flagged for a closer look

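Several genes differed between times post-MI by a test of the difference itself, the limma contrast of the 2 times, which sham cancels out of. In uninjected hearts, 24 h exceeded 4 h on the log2 scale by 4.09 for Itgam, 3.47 for Selplg, 3.17 for Itgb2, 2.09 for Selp, 0.66 for Icam1 and 0.59 for Vcam1. In Luc hearts, 24 h exceeded 4 h by 2.14 for Icam1 and 1.21 for Vcam1, and neither was called when library A of Luc at 24 h was left out. In Luc hearts, the differences of 48 h from 24 h were -3.44 for Icam1, -2.42 for Sele, -2.0 for Vcam1, -1.91 for Selp and -0.60 for Pecam1, and 1.80 for Itgam, 1.36 for Itgb2 and 1.14 for Selplg. Of these, Sele and Selp were not called when library A of Luc at 24 h was left out, nor Pecam1 without library D. Selp and Pecam1 were also not called under median-ratio rescaling. In the 5 groups of 4 libraries, none of 45 checks found a library far from the other 3 by Dixon's criterion, which flags about 1 in 20 groups by chance. Groups of 3 were not checked, so the 24 h libraries A were outside it.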

How the results depend on the processing

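Of 2029 recomputed log2 values of the 9 genes, none that was called in the model reported turned its direction, 28 of the 503 called lost their call and 18 others gained one. In uninjected hearts the counts of genes called, 3 at 4 h, 7 at 24 h and 6 between the times, were the same under every alternative run, the replicate block included, except the filter at a mean of 10 CPM, which left 2 at 4 h and 6 at 24 h because Sele was not tested. In the injected set, the genes called between Luc 24 h and sham went from 5 to 4 (Itgam lost) with median-ratio rescaling, array weights or the compared groups alone, and those between Luc 48 h and 24 h from 8 to 6 with that rescaling and 7 with the compared groups alone. The genes called between Luc 4 h and sham went from 0 to 5 with the compared groups alone, where the share of all genes called went from 1.55% to 4.76%. Between Luc 24 h and 4 h they went from 2 to 1 with median-ratio rescaling and without both libraries A, to 5 with array weights and to 4 with the compared groups alone. Between AC and Luc at 48 h they went from 1 to 3 with array weights and to 0 with the replicate block. For the AC effect at 48 h minus 4 h they went from 0 to 1 with array weights and with the compared groups alone. Shares of all genes called are not given for most alternatives. These counts therefore do not show a change particular to the 9 genes. Leaving out single libraries, the counts ranged from 3 to 5 for Luc 24 h against sham, 0 to 3 for Luc 24 h against 4 h, 6 to 8 for Luc 48 h against 24 h, 0 to 1 for AC against Luc at 48 h, 0 to 1 for the AC effect at 48 h minus 4 h and 0 to 1 for 48 h minus 24 h. Same-numbered libraries were not shown to be pairs: their deviations correlated between -0.206 and 0.345, not above 0.1 in every pair, and the replicate block changed no call other than Itgb2 at 48 h (0.92, q = 0.14). The injected set had 2 sham libraries and an unknown depth. The cause of these changes was not tested.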
